A study of Mus musculus with 2 samples.

Results

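The 10 genes described here are the AP-1 subunits Fos, Fosb, Fosl1, Fosl2, Jun, Junb and Jund and the immediate early transcription regulators Egr1, Ier2 and Atf3. They were taken by symbol, and all 10 were found among the 43346 mouse gene identifiers measured in the adrenal gland. The tissue came from C57BL/6J mice aged 8 weeks, littermates of both sexes, and no genotype change or treatment is given. The 2 libraries, biological replicates 1 and 2 per the labels, form 1 group. They share a donor entry and carry different biosample entries. How many animals went into each is not stated in the labels. Poly(A) RNA above 200 nt, freed of ribosomal RNA, was read as stranded pairs of 76 nt. Mouse genes received 47615328 expected counts in replicate 1 and 52890686 in replicate 2. An expected count is an estimate of read pairs per gene, and TPM is that estimate per transcript length, scaled to a fixed total.

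AP-1 is a dimer of basic leucine zipper (bZIP) proteins: Jun proteins pair with one another or with Fos proteins, whereas Fos proteins need a partner such as Jun. Immediate early genes are transcribed within minutes of a stimulus from factors already in the cell, and their transcripts are short-lived. In the adrenal gland, corticotropin in the cortex and nerve input to the medulla are known to raise several of them, Fos, Jun and Egr1 included. The tissue carried the transcripts of both parts of the gland: all 7 markers of the steroid-producing cortex and all 5 of the chromaffin medulla stood at 1 TPM or more in both libraries. The sex of each library is not recorded in the labels. All 4 Y-linked transcripts examined had 0 counts in replicate 2, against 221 for Kdm5d, 79 for Eif2s3y, 32 for Ddx3y and 26 for Uty in replicate 1, and Xist had 3401 counts in replicate 1 and 8376 in replicate 2. None of these Y-linked transcripts was thus detected in replicate 2, although the labels give littermates of both sexes. Every difference between the libraries below runs alongside this one, and its part in them was not tested. In whole tissue, fewer cells of a type and less RNA per cell cannot be told apart.

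The stretch upstream of the start site is shown for Fos, Fosb, Jun and Junb, to display the matches described here. They are 4 of the 7 members whose window was searched, and Egr1 was left out of the search. These 4 were picked with their sequences in view. The windows are those of RefSeq on GRCm38.p6, from position -250 to -11 relative to the start site, on the strand of the gene. Capitals mark TGACG, the core of the site for cAMP-responsive factors, TGACATCA, a variant of the AP-1 site, and TATAAA. The windows lie at chr12:85473640-85473879 (Fos, plus strand), chr7:19310056-19310295 (Fosb, minus strand), chr4:95052233-95052472 (Jun, minus strand) and chr8:84978759-84978998 (Junb, minus strand).
Fos: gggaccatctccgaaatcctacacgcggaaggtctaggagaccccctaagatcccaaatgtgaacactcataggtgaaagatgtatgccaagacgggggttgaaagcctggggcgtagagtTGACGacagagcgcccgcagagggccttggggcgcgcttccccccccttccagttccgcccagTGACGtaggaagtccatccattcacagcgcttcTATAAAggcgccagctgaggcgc
Fosb: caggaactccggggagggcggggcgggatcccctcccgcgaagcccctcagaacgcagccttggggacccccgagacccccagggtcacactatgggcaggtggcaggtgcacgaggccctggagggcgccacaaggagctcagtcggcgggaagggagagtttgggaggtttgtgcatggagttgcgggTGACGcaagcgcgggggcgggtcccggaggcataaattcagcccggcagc
Jun: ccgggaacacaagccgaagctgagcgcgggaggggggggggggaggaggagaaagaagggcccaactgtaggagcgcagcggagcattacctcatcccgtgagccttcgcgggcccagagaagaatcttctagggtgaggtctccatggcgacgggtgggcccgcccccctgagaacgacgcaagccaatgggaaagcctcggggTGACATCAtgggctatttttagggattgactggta
Junb: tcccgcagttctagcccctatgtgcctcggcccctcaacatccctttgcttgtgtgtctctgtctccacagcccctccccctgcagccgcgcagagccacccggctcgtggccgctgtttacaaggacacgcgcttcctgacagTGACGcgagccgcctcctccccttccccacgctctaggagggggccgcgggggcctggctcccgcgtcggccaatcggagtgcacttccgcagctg
Both strands were searched. TGACG began at positions -129 and -66 in Fos, -60 in Fosb and -106 in Junb, and 16.9% of 32851 RefSeq promoter windows of this length hold it. TGACATCA began at position -45 in Jun, and 2.84% of windows hold it. TATAAA began at position -33 in Fos, and 12.1% of windows hold it. TGACG was thus in 3 of the 7 windows, and those of Fosl2, Jund and Atf3 held neither it nor TGACATCA or TATAAA. The full palindrome TGACGTCA (1.44% of windows), the canonical AP-1 site TGACTCA (4.35%) and the CArG box (1.44%), the site of serum response factor, had no match in these 4 windows or in those of Fosl2, Jund and Atf3. Sequence outside positions -250 to -11 was not searched, so sites further away could not be seen. The windows follow RefSeq start sites, which can differ from the gene starts of GENCODE M21. Those of Fosl2 and Atf3 lie inside the M21 genes, and that of Jund ends at 70697728, away from the M21 start at 70698949. All matches above are letters in a window, and no binding was measured.

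Jun family transcripts were abundant in the gland and those of the classical stimulus-induced Fos were scarce. The 10 genes summed to 1224 TPM in replicate 1 and 1111 TPM in replicate 2, a mean of 1168 ± 79.5 (SD, n = 2). The Jun family made up 1029 and 838 TPM of this, and the Fos family 147 and 211 TPM. The Jun family therefore exceeded the Fos family 7.01-fold in replicate 1 and 3.97-fold in replicate 2. Of the 10 genes, 8 were at 1 TPM or more in both libraries. Fosb reached that level only in replicate 1, and Fosl1 in neither.

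**Figure D1:**
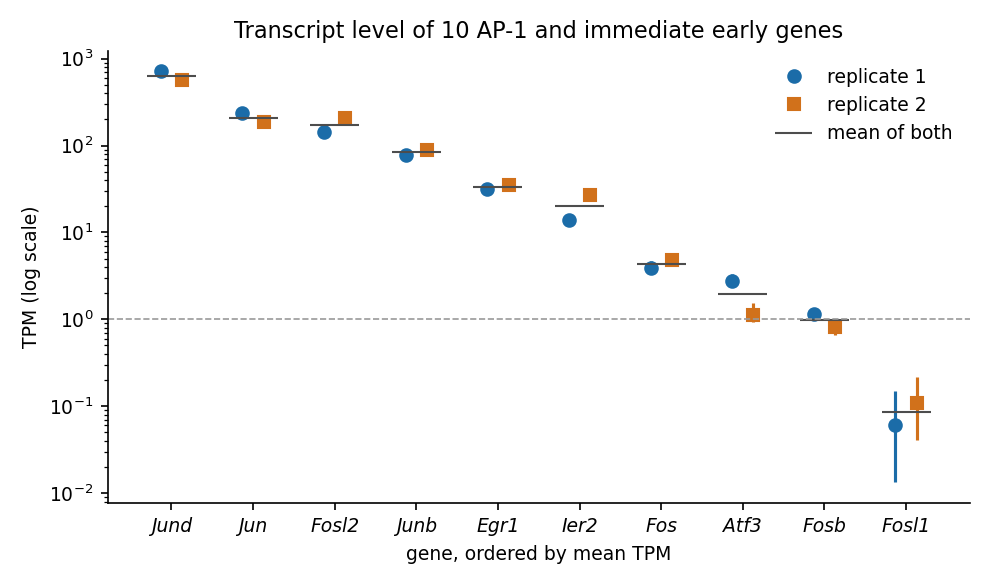
TPM on a log scale of the 10 genes in each library, with the mean of both as a horizontal line and the authors' deposited interval of each TPM as a vertical line, visible only where it is wider than the symbol. The levels run from 640 TPM (mean) for Jund to 0.085 TPM for Fosl1, and only Jun with Fosl2 and Atf3 with Fosb overlap among neighbours in the order.

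Jund (ENSMUSG00000071076.5, mm10 chromosome 8, 70698949 to 70700616, plus strand) encodes the Jun protein best known for steady expression in resting cells. It stood at 716 TPM in replicate 1 and at 564 TPM in replicate 2, a mean of 640 ± 108 (SD, n = 2). This was the highest level of the 10 in both libraries, ranks 182 and 241 among 21474 protein-coding genes, and above 99.0% of them by mean. Jund alone gave 68.4% ± 1.64 (SD, n = 2) of Jun family TPM.

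Jun (ENSMUSG00000052684.4, chromosome 4, 95049034 to 95052222, minus strand) encodes c-Jun, the main target of the JNK kinases. Its level was 235 TPM in replicate 1 and 185 TPM in replicate 2, a mean of 210.4 ± 35.2 (SD, n = 2). Both genes were higher in replicate 1, and Jund exceeded Jun 3.04-fold in each of them. Junb (ENSMUSG00000052837.5, chromosome 8, 84974484 to 84978718, minus strand), which can oppose c-Jun at some promoters, measured 77.8 and 88.8 TPM, a mean of 83.3 ± 7.73 (SD, n = 2). Junb was the least abundant Jun gene in both libraries, with 9.08% ± 2.14 (SD, n = 2) of the family's TPM. Jun exceeded Junb 3.02-fold in replicate 1 and 2.09-fold in replicate 2.

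Fosl2 (ENSMUSG00000029135.9, chromosome 5, 32135801 to 32157842, plus strand) encodes Fra-2, a Fos protein that lacks the strong activation domain of c-Fos. It stood at 142 TPM in replicate 1 and at 205 TPM in replicate 2, a mean of 173 ± 45.0 (SD, n = 2). Fosl2 accounted for 96.9% ± 0.543 (SD, n = 2) of Fos family TPM. Jun was 1.66-fold above Fosl2 in replicate 1 and 0.904-fold of it in replicate 2, so the order of these neighbours changed between the libraries.

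Fos (ENSMUSG00000021250.9, chromosome 12, 85473890 to 85477273, plus strand), the prototype immediate early gene, measured 3.92 TPM from 255 counts in replicate 1 and 4.84 TPM from 329 counts in replicate 2. Its mean was 4.38 ± 0.651 TPM (SD, n = 2), above 57.4% of protein-coding genes. Fosl2 exceeded Fos 36.1-fold and 42.4-fold, and Jun exceeded it 60.0-fold and 38.3-fold. Fosb (ENSMUSG00000003545.2, chromosome 7, 19302696 to 19310051, minus strand), whose truncated product is known to accumulate under chronic stimulation in brain, was at 1.16 TPM from 144 counts and 0.82 TPM from 108 counts. Fosl1 (ENSMUSG00000024912.5, chromosome 19, 5447547 to 5455946, plus strand), the gene of Fra-1, had 3 and 6 counts, or 0.06 and 0.11 TPM. Fos was above Fosb in both libraries, 3.38-fold and 5.90-fold, and Fosl1 was the lowest of the 10 in both.

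Egr1 (ENSMUSG00000038418.7, chromosome 18, 34859823 to 34864984, plus strand) encodes a zinc finger factor induced through the ERK pathway and serum response factor. Its level was 31.5 TPM in replicate 1 and 34.8 TPM in replicate 2, a mean of 33.2 ± 2.35 (SD, n = 2). Egr1 exceeded Fos 8.04-fold and 7.20-fold. Ier2 (ENSMUSG00000053560.4, chromosome 8, 84661331 to 84662852, minus strand), a small nuclear regulator, measured 13.7 TPM in replicate 1 and 26.8 TPM in replicate 2. Ier2 was below Egr1 in both libraries, by 2.29-fold and 1.30-fold. Atf3 (ENSMUSG00000026628.9, chromosome 1, 191170296 to 191218039, minus strand) encodes a stress-induced bZIP repressor that can pair with Jun proteins. It measured 2.78 TPM from 173 counts in replicate 1 and 1.12 TPM from 75 counts in replicate 2. Its range contained neither Fos nor Fosl1 but met that of Fosb, since Atf3 in replicate 2 lay below Fosb in replicate 1.

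The design holds no second condition, so the only comparison of reads is between the 2 libraries. It used a two-sided exact binomial test on expected counts scaled by TMM, with Benjamini-Hochberg adjustment over 15824 genes (20 or more counts in both libraries together), and called a gene at an adjusted p below 0.05 and 2-fold or more. Such a test compares these libraries against counting error alone and has no replicate check. Of the 9 genes tested, 1 passed, Atf3. Among all genes tested 6.92% passed, with 4.35% favouring replicate 1 and 2.57% favouring replicate 2. The count of 1 of 9 is thus near the background. By adjusted p alone 8 of the 9 passed, 4 higher in each library, where 58.3% of all genes passed. With spike-in scaling 8 passed as well, but 7 were higher in replicate 2 and 1, Atf3, in replicate 1. With that scaling 67.5% of all genes passed higher in replicate 2 and 7.01% higher in replicate 1.

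Atf3, with 2.78 TPM in replicate 1 and 1.12 TPM in replicate 2, was 2.54-fold higher in replicate 1 on scaled counts, a log2 ratio of 1.35 with a 95% counting interval of 0.95 to 1.76 (exact binomial test, adjusted p = 9.60e-12). The lower end of that interval lies just under 2-fold. Scaling to the spike-in RNAs took the log2 ratio to 0.92 and ended the call. The exact test of edgeR, run with an assumed biological variation of 0.2, also ended it (adjusted p = 0.143), as did the ratio of TPM with a pseudocount of 1 (log2 0.83).

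Ier2, with 634 counts in replicate 1 and 1330 in replicate 2, was 1.89-fold higher in replicate 2, the second-largest difference. Its log2 ratio was -0.92 (interval -1.06 to -0.78; exact binomial test, adjusted p = 4.46e-41), below the 2-fold minimum. With spike-in scaling it was -1.35 and passed. Fosl2 was 1.40-fold higher in replicate 2 (log2 ratio -0.48, interval -0.51 to -0.46). Egr1 and Junb were also higher in replicate 2, by 1.13-fold and 1.11-fold, differences small in size although their counting intervals excluded 0. The log2 ratio of Fos was -0.22 (interval -0.46 to 0.02), which did not pass (exact binomial test, adjusted p = 0.107). With spike-in scaling it was -0.65 and passed by adjusted p (1.21e-07) but not the 2-fold minimum.

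Jun and Jund were each 1.31-fold higher in replicate 1, with log2 ratios of 0.39 that became -0.039 and -0.037 under spike-in scaling. That scaling moved the median of all genes by -0.43, so relative to it both genes stayed on the side of replicate 1. Fosb was 1.47-fold higher in replicate 1 (log2 ratio 0.56, interval 0.19 to 0.94). With spike-in scaling its log2 ratio was 0.13 and did not pass (exact binomial test, adjusted p = 0.536). For Fosl1 the counting interval of the log2 ratio ran from -3.48 to 1.37, so no difference of any size within it could be seen at this depth. The median log2 ratio of the 9 genes was -0.15, against -0.0045 over all genes tested.

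**Figure D2:**
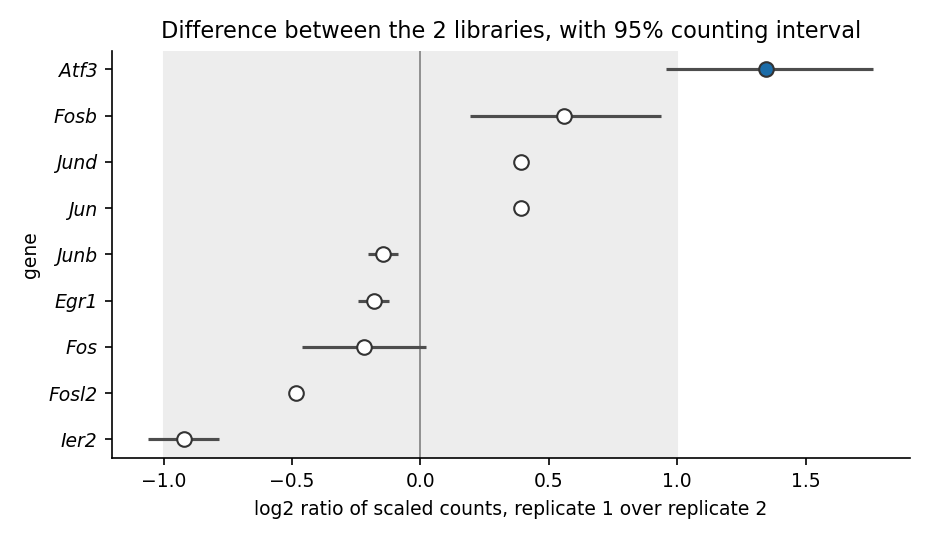
Log2 ratio of scaled counts, replicate 1 over replicate 2, for the 9 genes tested, with 95% counting intervals as lines and the range under 2-fold shaded. Atf3 (1.35, filled) is the one gene called, and the interval of Fos is the one that includes 0.

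**Figure D3:**
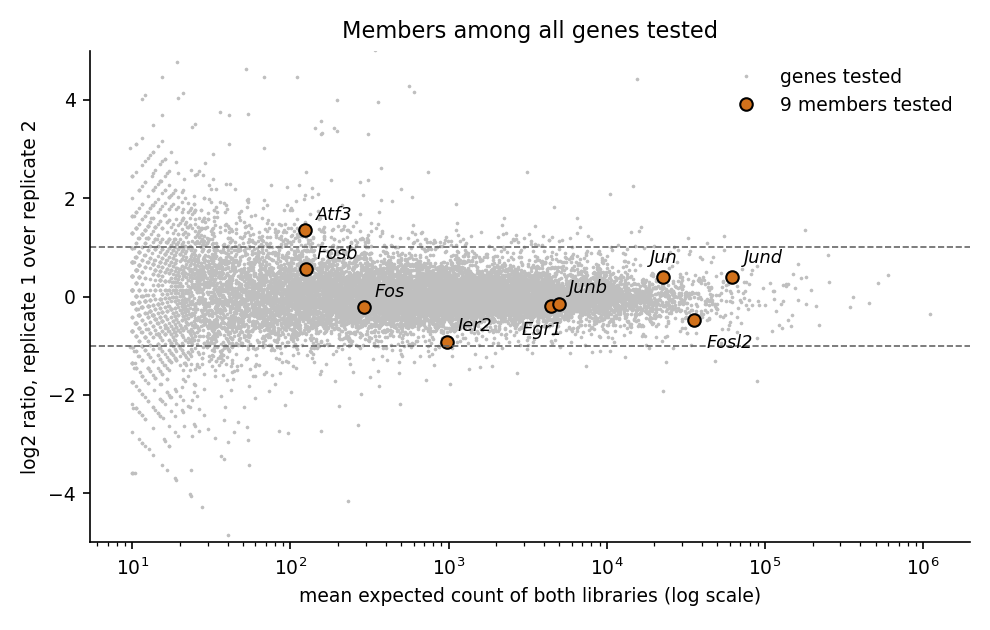
Log2 ratio of replicate 1 over replicate 2 against mean expected count (log scale) for 15824 genes tested (grey), with the 9 members in colour and dashed lines at 2-fold. The 9 members lie within the cloud of other genes, and 56 genes lie beyond the plotted range of 5.

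The libraries also differed in markers of other tissues. The 7 adipose markers, all at 1 TPM or more in both, summed to 14534 TPM in replicate 1 and 6430 TPM in replicate 2, with 2 called. Cfd alone gave 9884 and 3984 TPM of these sums, and Lep, at 7.74 and 11.8 TPM, was the 1 adipose marker higher in replicate 2. The 5 stomach and pancreas markers summed to 97.0 and 3.64 TPM, with 4 called and Cpa1 at 0 in both. The 4 liver markers summed to 4.40 and 29.8 TPM, and all 4 were called. The 7 cortex markers summed to 22690 and 30675 TPM with none called, and the 5 medulla markers to 3890 and 3586 TPM with 1 called. The medulla markers did not share 1 direction: Chgb, the gene called, was at 290 and 147 TPM, and Pnmt was at 381 and 593 TPM. The part of these differences in the ratios of the 10 genes was not tested.

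For most of the 10 genes the quantified transcripts leave no choice of isoform. The tables list 16 transcripts for them, and 7 genes have a single one, among them the intronless Jun, Junb, Jund and Ier2. Egr1 has 2, and its 2-exon transcript took 50.3% of the gene's TPM in replicate 1 and 65.4% in replicate 2, a mean of 57.9%. The remainder was assigned to the 3-exon transcript, at 15.6 TPM in replicate 1 and at 12.0 TPM in replicate 2. Its additional annotated intron is 36 nt long, and no Egr1 junction was placed that could check this split. The 2-exon form was the higher in both libraries, narrowly in replicate 1. By expected counts its mean share was 67.3%. The coding transcript of Fos took 96.7% and 93.8% of Fos TPM, and all Atf3 TPM was assigned to its coding transcript of 1984 nt. By the authors' posterior mean TPM these mean shares were 90.7% for Fos and 93.6% for Atf3.

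The single Fosb transcript in those tables cannot separate full-length FosB from its short form ΔFosB, but the splice junction table can show the event that makes it. ΔFosB arises when 140 nt inside the coding sequence are removed as an intron. The junction table, in mm9, names no replicate and was taken as pooled over both libraries, which its sources do not state. In it this junction had 22 reads (chromosome 7, 19890356 to 19890495), and the first Fosb intron of 1865 nt had 24 reads (chromosome 7, 19892790 to 19894654). The authors' scores of these entries were 0.099 and 0.009, the direction of that score is not stated, and it was not used as a filter. At the same spacing the other annotated Fosb introns were not listed, those of 453 and 1256 nt in the full-length transcript included. They therefore have no read count here. The full-length form keeps the 140 nt and has no junction there, so these reads give no share of ΔFosB. The segment, read from the M21 transcript of Fosb, is shown with its first and last bases, the GT and AG of an intron, in capitals, followed by the join made when it is removed, with the new stop codon in capitals.
Removed segment: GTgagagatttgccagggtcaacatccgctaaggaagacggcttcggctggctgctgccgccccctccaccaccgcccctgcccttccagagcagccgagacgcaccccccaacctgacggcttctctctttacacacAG
Join: ggcccgctggccgagTGAagttcaagtcct
The full coding sequence holds 338 codons before its stop. Removing the segment brings a TGA stop directly to the join and leaves 237 codons, 101 fewer. ΔFosB thereby lacks the C-terminal part of FosB.

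Besides Fosb, Fosl2 was the member whose introns could be placed by length and spacing. In the same mm9 table, its first intron (chromosome 5, 32439179 to 32449197) had 9402 junction reads, its second (32449450 to 32452793) had 587 and its last (32452902 to 32455043) had 103. The first intron had 16.0-fold more reads than the second, the second 5.70-fold more than the third, and the first 91.3-fold more than the third. The background was 548 genes with a coding transcript of 3 introns, all listed, and at least 300 junction reads over them. Their median log2 ratio of first to last intron was 1.19 (quartiles -1.18 to 3.77). Such genes can have other transcripts with more introns, and the part of this in the spread was not tested. Fosl2 stood at 6.51, and 9.31% of those genes had a ratio at least as high. Over those genes, 59.5% differed more than 4-fold between first and last intron, in either direction.

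The contig table lists stretches of continuous coverage in mm9, and it too names no replicate and was taken as pooled. The contig over Fosl2 exon 1, 2079 nt long with 1005 nt of exon, had a coverage signal per length of 74.8, and that over exon 4, 5675 nt long with 5172 nt of exon, had 66.4. The contig over exon 2 had a signal of 36.3, but only 252 of its 3746 nt were exon, with 1647 nt before the exon and 1847 nt after it. The contig over exon 3 had a signal of 5.25, with 108 nt of exon in 557 nt, 388 nt before the exon and 61 nt after it. The signals at exons 2 and 3 are therefore averages over mostly intronic sequence and do not give the coverage of the exons. For Fosb, the contig at exon 1 (340 of 746 nt of the exon) had a signal of 1.25 and that at exon 2 had 1.99. Exon 4, which holds the removed segment, had 5 separate contigs with signals from 0.14 to 1.08.

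**Figure D4:**
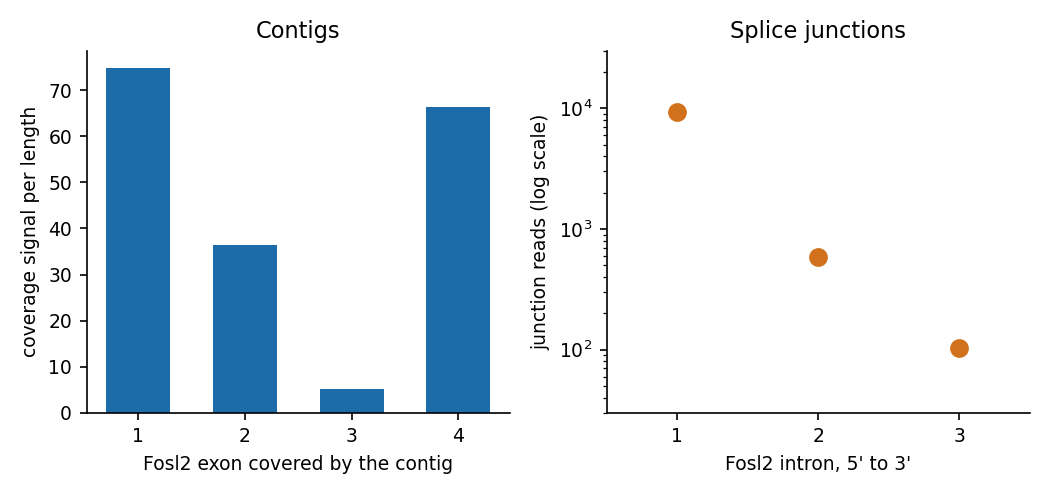
Left, coverage signal per length of the whole contig, introns included, that lies over each Fosl2 exon, as bars from 0. Right, splice junction reads of each Fosl2 intron on a log scale, which run from 9402 at the first to 103 at the third, while the contig over exon 4 (66.4) is near that over exon 1 (74.8).

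Short-lived transcripts of this kind are known for AU-rich elements after the stop codon, where the decay factors of the Zfp36 family bind. The pentamer ATTTA occurred after the stop codon in 9 of the 10 genes, all but Ier2, against 66.3% of 20657 mouse genes. The nonamer TTATTTATT, in capitals below within its 29-base site, occurred in Fos and Fosl2, against 7.79% of genes.
Fos: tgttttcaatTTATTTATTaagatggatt
Fosl2: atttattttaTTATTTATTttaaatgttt
The nonamer is thus shared by a scarce and an abundant Fos gene. The sequence after the stop codon is 815 nt long in Fos and 4653 nt in Fosl2, against a median of 989 nt over all genes. The background took the longest such sequence of each gene, whereas a single transcript was read for each member. By density of ATTTA, Fos stood highest at 4.91 per kb, above 92.2% of genes, followed by Junb at 4.12 and Jun at 3.24, and Fosl2 was at 1.72.

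Other immediate early genes were measured alongside. All 30 on the list were found, 28 were at 1 TPM or more in both libraries, and 2 of the 29 tested were called, both higher in replicate 2, where 6.92% of all genes were called in either direction. Nr4a1, the nuclear receptor Nur77, was at 158 TPM in replicate 1 and at 412 TPM in replicate 2 (2.53-fold on scaled counts). Sik1, a kinase induced by cAMP, was at 20.9 and 43.9 TPM (2.03-fold). The median of the list was 0.22, with 15 genes higher in replicate 1 and 8 higher in replicate 2 by adjusted p alone (29.2% and 29.0% of all genes). With spike-in scaling the median was -0.21 and these counts were 3 and 16. The genes of the list called then numbered 4, all higher in replicate 2, against 1592 of all 15824 genes tested in either direction. With that scaling the median of all genes was -0.43, and 7.01% and 67.5% of them passed higher in replicates 1 and 2. The highest levels on the list were Rhob, a small GTPase, at 526 ± 67.8 TPM, Zfp36l1, a decay factor for AU-rich transcripts, at 463 ± 4.22 TPM, and Nr4a1 at 285 ± 180 TPM (SD, n = 2 for each).

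Of the 13 other bZIP partners, 12 were at 1 TPM or more in both libraries, and 1 was called, against 6.92% of all genes. Batf, a partner of Jun known from lymphocytes, had 50 counts in replicate 1 and 8 in replicate 2, or 1.89 and 0.28 TPM, 6.56-fold on scaled counts. The highest partners were Atf4, the translation-controlled stress factor, at 157 ± 5.47 TPM, the small Maf gene Mafg at 60.4 ± 8.29 TPM and Atf7 at 54.2 ± 14.1 TPM (SD, n = 2 for each). Jund and Jun were above each of these 3 in both libraries.

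Upstream, none of the 23 factors and kinases was called, and all were at 1 TPM or more in both libraries. By adjusted p alone 18 passed in the exact binomial test, 15 of them higher in replicate 2, where 29.0% of all genes were higher in replicate 2, and the median log2 ratio was -0.09. With spike-in scaling 22 passed, all higher in replicate 2, and 1 of them was called. With that scaling 67.5% of all genes passed higher in replicate 2. The most abundant of the 23 were the ERK pathway kinases Map2k2 at 828 ± 53.4 TPM and Mapk3 at 270 ± 44.3 TPM, and the JNK pathway kinase Map2k7 at 97.7 ± 3.96 TPM (SD, n = 2 for each).

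Of the 13 feedback inhibitors 1 was called, against 6.92% of all genes, and the median log2 ratio was 0.19. Spred1, an inhibitor of the Ras and ERK pathway, was at 22.7 TPM in replicate 1 and at 11.2 TPM in replicate 2 (2.09-fold on scaled counts). The phosphatases Dusp6, at 99.0 and 98.7 TPM, and Dusp1, at 87.3 and 80.3 TPM, and the Egr1 corepressor Nab2, at 38.9 and 35.6 TPM, led the list, and none of these 3 reached 2-fold.

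Of 14 known AP-1 target genes 12 were tested and 3 were called, 2 higher in replicate 1 and 1 in replicate 2, against 6.92% of all genes. Spp1, osteopontin, was at 12.7 TPM in replicate 1 and at 26.6 TPM in replicate 2, and the matrix proteases Mmp9 (3.41 and 1.63 TPM) and Mmp13 (0.32 and 0.12 TPM) were higher in replicate 1. Vegfa, at 630 ± 31.5 TPM, Ccnd1, at 119 ± 12.5 TPM, and Hmox1, at 52.8 ± 16.2 TPM (SD, n = 2 for each), were the most abundant. Under spike-in scaling the calls of Spred1 and Mmp9 were lost, and with the assumed variation of 0.2 those of Nr4a1, Sik1, Spred1, Spp1, Mmp9 and Mmp13 were lost, leaving Batf. On TPM with a pseudocount of 1, Spred1, Mmp9 and Mmp13 fell short of 2-fold, and Mmp13 did so with a pseudocount of 0.1 as well (log2 0.93).

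**Figure D5:**
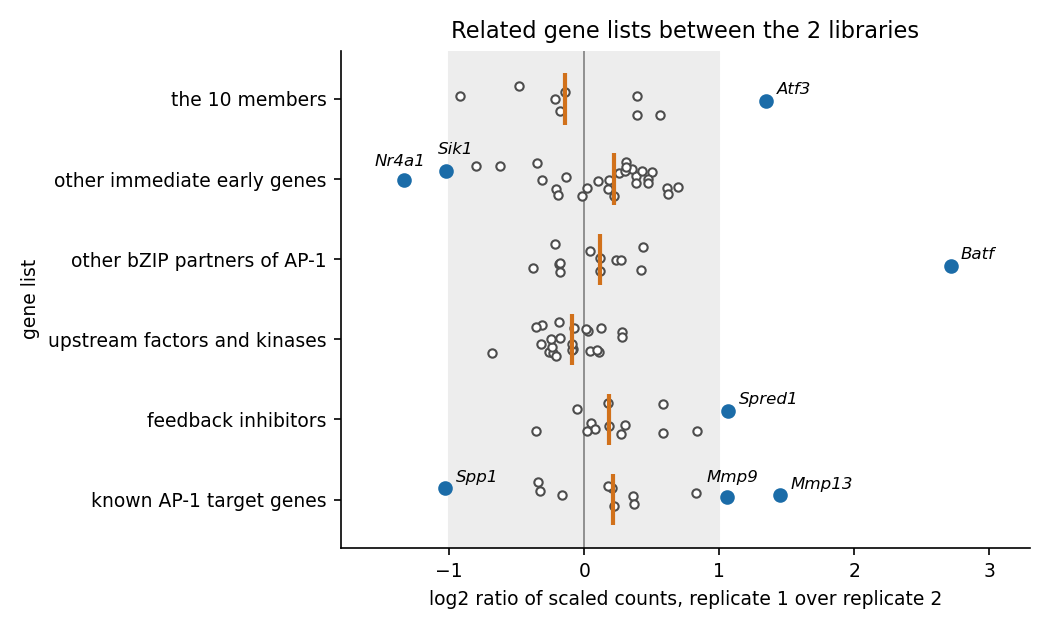
Log2 ratio of replicate 1 over replicate 2 for every tested gene of the 10 members and of 5 related lists (points, spread vertically for visibility), with genes called in filled symbols and each list's median as a vertical bar. Medians lie between -0.15 (the members) and 0.22 (other immediate early genes), all inside the shaded range under 2-fold.

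Antisense neighbours bear on some values. M21 places Junos over Jun (131 and 79 counts), Gm11175 over Jund (204 and 173 counts), Prdx2 over part of Junb (6183 and 7933 counts) and Ccdc85b over part of Fosl1 (723 and 716 counts), each on the opposite strand. The libraries are stranded per the labels, but nothing read here states whether the counting used strand. For Jun and Jund the antisense counts are small beside those of the gene, whereas for Junb and Fosl1 the neighbour had more counts than the member in both libraries.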

How the data were processed

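Poly(A) RNA of adrenal gland was measured in 2 libraries of 1 group. Per the readme files deposited with the tables, reads were aligned to mm10 with the M4 annotation, and the authors derived gene and transcript values from transcriptome alignments. The deposited expected counts are not normalized, and the authors' TPM is scaled per length to a fixed total. The authors' interval bounds of TPM were used for plotting only. Junction read counts, the authors' junction score and the contig coverage signal come from deposited mm9 tables that name no replicate and were taken as pooled over both libraries. The aligner and the quantifier: not given in the sources used here.

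Symbols, types and positions came from GENCODE M21 on the same assembly, and 42462 of 43346 identifiers matched. M4 and M21 models differ for some genes: the M4 transcript of Jund is 2878 nt, longer than the M21 gene. Summed counts over all rows were 48059863 and 53294872, of which spike-ins took 0.654% and 0.485%, and spike-ins were left out of library sizes. Expected counts were rounded and scaled with TMM (edgeR 4.0.16, R 4.3.3). An exact binomial test (scipy 1.17.1) was run per gene, with a prior count of 0.5 in the log2 ratio and Clopper-Pearson 95% intervals, which cover counting error only. The test was checked on simulated counts that held counting error alone, so that check does not cover variation between replicates. Total counts, median-of-ratios (DESeq2 1.42.0), spike-ins, other thresholds, an assumed variation of 0.2 and TPM ratios were tried as alternatives.

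The members, the gene lists and the tests were chosen with earlier results of these data known. All 10 members are named, and of each list the 3 genes of highest mean TPM and every gene called. Introns were placed in the mm9 tables where at least 2 introns of a gene matched the M21 lengths at one exact spacing. This rule replaced one that accepted a single intron and misplaced Atf3, and it left the introns of Fos, Fosl1, Egr1 and Atf3 not analysed here. The Fosl2 reads and contigs were seen before the background of genes with a transcript of 3 introns was built. The motifs, the window and the promoters printed were chosen with the sequences in view, TGACATCA from that of Jun. RefSeq promoter windows of 7 of the 10 members were searched, and not all of them are printed. Egr1 was left out of that search, so its window is not covered by the motif results. Sequences after the stop codon are from M21.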

Additional observations from a re-analysis of the deposited data

How the results depend on the processing

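The summed level of the 10 genes stayed within 1111 to 1224 TPM and the mean share of the 2-exon Egr1 transcript within 50.3% to 67.3% under every alternative tried, leaving out each library in turn included. Leaving out 1 library returns the value of the other, so 1111 and 1224 TPM are the 2 libraries themselves. With both kept, the alternatives gave a summed level of 1157 to 1180 TPM. The number of the 10 genes called was 1 under total-count, median-of-ratios and spike-in scaling, without the count minimum and for TPM with a pseudocount of 0.1. Under spike-in scaling that 1 gene was Ier2 and not Atf3. The number was 0 with an assumed variation of 0.2 (244 of all genes called, against 1095), 0 for TPM with a pseudocount of 1 (357 called) and 8 by adjusted p alone (9219 called). Spike-in scaling moved the median log2 ratio of the 9 genes from -0.15 to -0.57, and the share of calls that were higher in replicate 1 from 62.9% to 18.2%. It reversed Jun (-0.039), Jund (-0.037), Rhob (-0.12), Zfp36l1 (-0.41), Atf4 (-0.32), Dusp6 (-0.38), Dusp1 (-0.25), Nab2 (-0.24) and Vegfa (-0.22), while all genes moved by -0.43. On TPM with a pseudocount of 1 or 0.1, Zfp36l1 was -0.0186 with either and Vegfa was -0.10 with either, also reversed. The cause of these changes was not tested. The direction of the other 7 tested members held under every alternative. No paired analysis was possible because the 2 libraries form a single group. With 1 library on each side no spread between replicates enters the test, and depth limits the lowest member, Fosl1, with 3 and 6 counts.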
